A study of Mus musculus with 24 samples.

Results

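The response measured here was the change in transcript counts 12 h after mouse embryonic stem cells (mESCs) lost PD03, an inhibitor of the kinase MEK. It was read from 8 of the 24 libraries of the series, namely 2 at 0 h and 2 at 12 h on each of a soft and a stiff hydrogel, and the substrate entered the fit as a block. All genes that passed a filter on low counts were described, which were 18277 of the 35022 genes counted in this experiment. The cells were of the line E14, labelled 129m wt, and were kept for 12 h in 2i+LIF on StemBond hydrogels, soft or stiff polyacrylamide gels that bind the adhesion protein fibronectin. This medium held 1 µM PD03, 3 µM CHIRON, an inhibitor of the kinase GSK3, and the cytokine LIF. The 0 h libraries came from cells still in 2i+LIF, and the 12 h libraries from cells given CHIRON+LIF for 12 h, so that CHIRON, LIF and the fibronectin coating were common to all 8 libraries. No library was kept in 2i+LIF to 12 h, and loss of PD03 therefore cannot be told apart from a further 12 h on the gel. The 16 other libraries were those at 2 h and those of a second experiment in which CHIRON was withdrawn and PD03+LIF kept.

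MEK activates ERK downstream of Ras and of the receptors for fibroblast growth factors (FGFs). In mESCs the pathway is driven largely by FGF4 that the cells themselves secrete, and active ERK turns on genes of early transcription factors and of its own inhibitors, the Sprouty and Spred proteins and the dual-specificity phosphatases. Blocking MEK and GSK3 together holds mESCs in the naïve state of the early epiblast, and release from the MEK block is known to start their move to the formative state that precedes lineage choice. LIF, acting through Stat3, and CHIRON, acting through β-catenin, oppose this move.

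Levels are given in normalised CPM, the count of a gene set against the scaled total count of its library, and they were not corrected for gene length, so that they compare libraries and not genes. *Dppa3* (Stella), a factor of naïve cells that limits DNA methylation, was at 11.3 and 11.1 on soft and 10.4 and 9.44 on stiff at 0 h and at 4.26 and 4.31 on soft and 3.72 and 2.83 on stiff at 12 h. Every library at 12 h lay below every library at 0 h (log2 fold change -1.48, standard error 0.11, adjusted p = 7.02e-11). The fall of a transcript in bulk RNA cannot tell fewer cells that hold it from less of it per cell. *Nanog*, a core transcription factor of naïve pluripotency, was at 812 and 837 on soft and 856 and 857 on stiff at 0 h and at 619.9 and 655 on soft and 598 and 583 on stiff at 12 h. Its libraries did not overlap either, although the change was smaller (log2 fold change -0.45, standard error 0.035, adjusted p = 1.21e-10). *Cntfr*, the receptor subunit for ciliary neurotrophic factor that signals through the same gp130 chain as the LIF receptor, was at 0.739 and 0.817 on soft and 0.393 and 0.929 on stiff at 0 h and at 6.73 and 5.84 on soft and 10.7 and 11.7 on stiff at 12 h. It rose in every library, with higher values on stiff than on soft substrates at 12 h (log2 fold change 3.55, standard error 0.19, adjusted p = 2.02e-13). Transcripts that define mESCs were found at both times, with *Pou5f1* (Oct4) at 798 ± 28 CPM at 0 h and 784 ± 25.1 at 12 h (SD, n = 4, 2 on each substrate), *Esrrb* at 804 ± 20.9 and 799.9 ± 11.3, and *Tdgf1* at 368 ± 16.6 and 353 ± 27.

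Of 27 genes chosen as the largest or most certain changes, 21 had a promoter sequence in RefSeq for GRCm38, taken as 250 bases before to 50 after the start that RefSeq gives, which can lie inside the gene span of GENCODE used for positions here. These windows were searched on both strands for AP-1 (TGANTCA), the cAMP response element (TGACGTCA), an ETS site (CCGGAAGT), the core of the xenobiotic response element (TTGCGTG), an E-box (CACGTG) and the CArG box of serum response factor, and 5 of them held at least 1. The windows below belong to *Cntfr* and *Krt23*, both among the largest rises, and to *Cyp1a1* and *Lrrc15*, both among the largest falls. Capitals mark an E-box in that of *Krt23* (chr11:99493071-99493370, minus strand), letters that fit a CArG box in that of *Cyp1a1* (chr9:57697363-57697662, plus strand) and an AP-1 match in that of *Lrrc15* (chr16:30283205-30283504, minus strand). The window of *Cntfr* (chr4:41695988-41696287, minus strand) held none of the motifs searched. The capitals of *Cyp1a1* hold TATAAA and so also fit a TATA box, and its window held no xenobiotic core.
Cntfr: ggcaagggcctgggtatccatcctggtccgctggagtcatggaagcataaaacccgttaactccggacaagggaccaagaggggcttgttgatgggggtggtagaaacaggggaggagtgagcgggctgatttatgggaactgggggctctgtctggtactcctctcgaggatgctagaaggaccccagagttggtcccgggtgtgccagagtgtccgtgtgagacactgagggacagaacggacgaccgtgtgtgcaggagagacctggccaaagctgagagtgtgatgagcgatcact
Krt23: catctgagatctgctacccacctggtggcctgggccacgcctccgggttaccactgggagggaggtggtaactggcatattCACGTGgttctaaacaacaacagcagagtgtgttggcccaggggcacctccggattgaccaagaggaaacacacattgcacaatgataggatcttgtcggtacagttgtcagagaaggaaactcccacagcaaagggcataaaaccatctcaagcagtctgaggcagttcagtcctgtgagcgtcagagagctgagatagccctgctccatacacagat
Cyp1a1: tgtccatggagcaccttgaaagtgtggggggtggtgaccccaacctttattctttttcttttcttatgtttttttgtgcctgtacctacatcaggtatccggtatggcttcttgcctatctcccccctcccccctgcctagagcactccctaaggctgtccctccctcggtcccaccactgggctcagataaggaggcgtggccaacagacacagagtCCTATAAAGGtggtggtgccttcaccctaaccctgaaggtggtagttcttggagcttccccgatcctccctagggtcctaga
Lrrc15: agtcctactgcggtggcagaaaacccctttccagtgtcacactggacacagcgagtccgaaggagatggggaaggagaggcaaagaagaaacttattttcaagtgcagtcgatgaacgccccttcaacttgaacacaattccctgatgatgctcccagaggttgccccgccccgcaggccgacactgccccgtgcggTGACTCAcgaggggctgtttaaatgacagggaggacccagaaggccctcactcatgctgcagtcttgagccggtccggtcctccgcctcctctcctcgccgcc
Among all 10641 tested genes with such a window, 4.62% held the AP-1 letters, 8.19% the ETS site, 10.1% the E-box, 3.22% the cAMP response element, 1.74% the core of the xenobiotic element and 1.29% the CArG box. Of the 220 windows of genes that rose by a log2 fold change above 1, 8 held AP-1 (3.64%), 6 the ETS site (2.73%) and 15 the E-box (6.82%). Of the 165 windows of genes that fell by as much, 12 held AP-1 (7.27%), 3 the ETS site (1.82%), 9 the E-box (5.45%) and 5 the xenobiotic core (3.03%). A match describes letters in a short window and no binding, and the shares were not tested.

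The libraries held between 16222196 and 26442153 counts, of which 73.1% to 77.5% fell on protein-coding genes. Replicates of a group differed from each other by more than counting alone gives, with a chi-square of 2.79 to 4.93 for each degree of freedom. A floor of 3 counts corresponded to 0.111 to 0.188 CPM, and levels below 1 CPM are called near the detection limit here. The 0 h means of *Cntfr*, *Krt23*, *Chrna9*, *Prss50*, *9330159F19Rik* and *Itga1* and the 12 h mean of *Ahrr* were among those that lay below it. The size and order of their fold changes are therefore uncertain. The labels do not say whether replicates were separate cultures, and the p-values therefore measure the spread between these samples, which may be technical. Counts on genes of the mitochondrial genome took 5.70% to 7.03% of a library at 0 h and 10.0% to 11.8% at 12 h, with no overlap. Most of these counts lay on 1 ribosomal RNA, *mt-Rnr2*, in libraries that had been depleted of ribosomal RNA. The first principal component, with 48.9% of the variance, placed the 0 h libraries between -29.5 and -23.0 and the 12 h libraries between 18.4 and 34.8.

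At 12 h, 7824 of the 18277 genes tested had changed (42.8%), 3840 upward (21.0%) and 3984 downward (21.8%) (edgeR's quasi-likelihood test, Benjamini-Hochberg adjusted p under 0.05). These shares of 21.0% and 21.8% stand beside the count of every gene list below. Most changes were small. A log2 fold change above 1 was reached by 374 genes that rose (2.05%) and 258 that fell (1.41%), and the median over all genes was 0.00032 with an SD of 0.424. In 6775 genes (37.1%) every library of one time lay above every library of the other, 3279 of them higher (17.9%) and 3496 lower at 12 h (19.1%). When libraries were scaled by their totals alone, 3056 genes rose and 4945 fell, so that 38.2% of the calls were rises in place of 49.1%, and the median over all genes moved to -0.0457. Small changes near this shift therefore depend on the scaling.

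**Figure D1:**
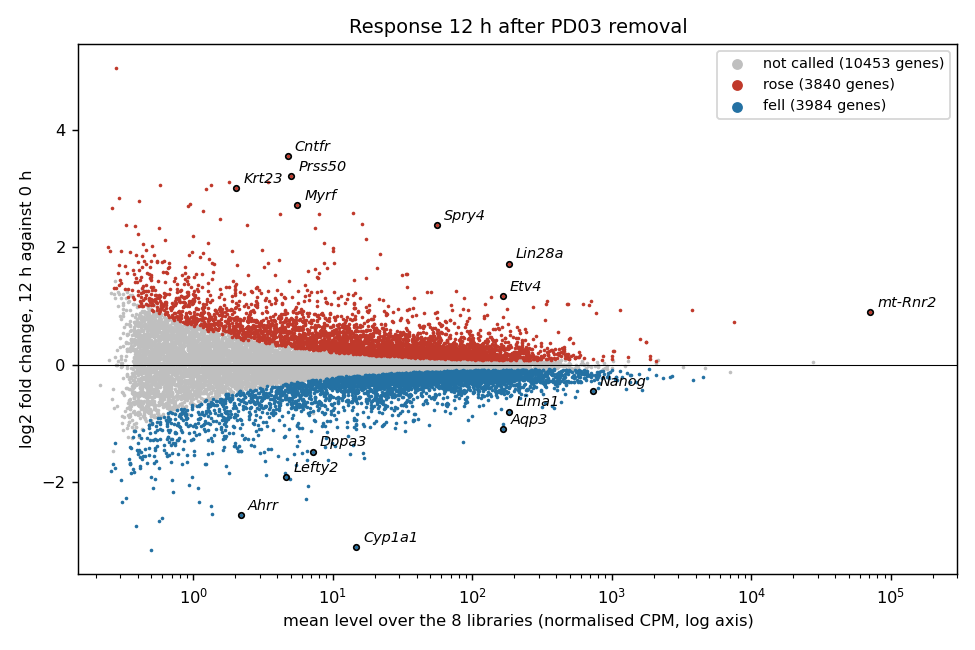
Log2 fold change at 12 h against 0 h (vertical axis) against mean level in normalised CPM over the 8 libraries (log axis), with 1 point a gene. The 3840 genes that rose are red, the 3984 that fell are blue and the 10453 not called are grey, and named genes run from *Cntfr* (3.55) to *Cyp1a1* (-3.11).

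Of called genes with a mean of at least 2 CPM whose libraries did not overlap, *Cntfr* (chromosome 4, 41657498 to 41697089 of GRCm38) had the largest rise. *Prss50* (chromosome 9, 110857967 to 110864629), a serine protease of the testis, followed, at 1.22 and 0.432 on soft and 1.13 and 1.08 on stiff at 0 h and 7.73 and 7.08 on soft and 10.5 and 11 on stiff at 12 h (log2 fold change 3.21, standard error 0.17, adjusted p = 1.19e-13). The keratin *Krt23* (chromosome 11, 99477974 to 99493137), an intermediate filament of epithelia, was at 0.348 and 0.625 on soft and 0.295 and 0.483 on stiff and then at 2.52 and 2.87 on soft and 3.94 and 5.1 on stiff (log2 fold change 3.01, standard error 0.25, adjusted p = 5.16e-10). All 3 had 12 h values on stiff above those on soft. *Myrf* (chromosome 19, 10208272 to 10240748), a membrane-bound transcription factor best known from myelinating cells, went from 1.43 and 1.49 on soft and 1.28 and 1.6 on stiff to 7.15 and 8.82 on soft and 11.7 and 11 on stiff (log2 fold change 2.72, standard error 0.14, adjusted p = 1.40e-13). *Nlrc4* (chromosome 17, 74425438 to 74459142), a sensor of the inflammasome, went from 3.78 and 3.8 on soft and 4.42 and 3.9 on stiff to 19 and 19.4 on soft and 30.6 and 27.1 on stiff (log2 fold change 2.59, standard error 0.10, adjusted p = 2.47e-16). The receptor tyrosine kinase *Epha1* rose from a mean of 1.2 ± 0.116 to 7.13 ± 0.785 CPM (SD, n = 4), the zinc finger factor *Zfp423* from 2.27 ± 0.307 to 13.6 ± 4.04, and the nicotinic receptor subunit *Chrna9* from 0.766 ± 0.112 to 4.05 ± 0.954. The neighbours *9330159F19Rik* (chromosome 10, 29211606 to 29230779) and *Soga3* (chromosome 10, 29143839 to 29199630) rose together, by log2 fold changes of 3.11 and 2.39. Reads of neighbouring or antisense transcripts may be shared, since no source used here tells whether counting was by strand.

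The smallest p-values among the rises belonged to *Spry4*, *Lin28a* and *Etv4*. *Spry4*, a Sprouty inhibitor of receptor tyrosine kinase signalling, was at 15.1 and 16.1 on soft and 22.9 and 18 on stiff at 0 h and at 80.4 and 79.3 on soft and 109.7 and 103 on stiff at 12 h (log2 fold change 2.38, standard error 0.057, adjusted p = 3.41e-20). At 2 h its 4 libraries lay between 133 and 189, above every library at 0 h and at 12 h. *Lin28a* (chromosome 4, 134003330 to 134018841), an RNA-binding protein that blocks the let-7 microRNAs and is raised after naïve pluripotency, went from 84.6 and 80.0 on soft and 89.2 and 84.2 on stiff to 253 and 248 on soft and 307 and 310.3 on stiff (log2 fold change 1.72, standard error 0.042, adjusted p = 3.41e-20). At 2 h it was still between 85.9 and 89.9 CPM. *Etv4* (chromosome 11, 101769742 to 101785371), an ETS factor of the PEA3 group induced by FGF signals, went from 93.7 and 97 on soft and 106 and 108 on stiff to 201 and 209.9 on soft and 246 and 256 on stiff (log2 fold change 1.17, standard error 0.036, adjusted p = 7.20e-18), and was between 122 and 140.0 at 2 h. *Cntfr* was between 0.805 and 1.03 at 2 h, a range that overlapped with that of 0 h.

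Of called genes with a mean of at least 2 CPM and no overlap between the times, the largest fall was that of *Cyp1a1* (chromosome 9, 57687928 to 57703824), the cytochrome P450 that is the standard target of the aryl hydrocarbon receptor. It was at 26.6 and 28.2 on soft and 25.7 and 25.4 on stiff at 0 h and at 4.47 and 3.96 on soft and 1.59 and 2.2 on stiff at 12 h (log2 fold change -3.11, standard error 0.13, adjusted p = 1.56e-15). The 2 h libraries lay between 16 and 20.9, between those of 0 h and 12 h. The repressor of the same receptor, *Ahrr* (chromosome 13, 74211118 to 74292331), went from 3.13 and 4.42 on soft and 3.73 and 3.72 on stiff to 0.579 and 0.495 on soft and 0.656 and 0.819 on stiff (log2 fold change -2.56, standard error 0.21, adjusted p = 5.50e-10). *Ap3b2*, a vesicle coat subunit of neurons, went from 10.8 and 12 on soft and 9.58 and 10.3 on stiff to 2.79 and 2.53 on soft and 2.02 and 1.32 on stiff (log2 fold change -2.29, standard error 0.13, adjusted p = 6.73e-13), and the ETS factor *Spic* (chromosome 10, 88674772 to 88685015) from 11.6 and 11.7 on soft and 10.7 and 9.18 on stiff to 2.79 and 2.87 on soft and 2.73 and 1.83 on stiff (log2 fold change -2.07, standard error 0.12, adjusted p = 1.07e-12). All 4 genes fell on both substrates without overlap. *Lefty2*, a secreted inhibitor of Nodal, went from 10.5 and 7.83 on soft and 6.09 and 4.98 on stiff to 1.32 and 2.03 on soft and 2.84 and 1.45 on stiff (log2 fold change -1.92, standard error 0.20, adjusted p = 2.78e-08), with the higher 0 h values on soft. *Aldh1a2* (chromosome 9, 71215789 to 71296243), the enzyme that makes retinoic acid in the embryo, went from 7.04 and 8.74 on soft and 6.78 and 5.99 on stiff to 2.37 and 2.38 on soft and 1.2 and 2.01 on stiff (log2 fold change -1.84, standard error 0.15, adjusted p = 2.78e-10). *S100a13* (a calcium-binding protein), *Lrrc15* and *Gm3183* fell by 1.92, 1.71 and 1.87 on the log2 scale, and the antisense transcript *6330410L21Rik* by 1.94. The values of *Gm3183*, which belongs to a family of near-identical copies, and of the antisense transcript are uncertain. The smallest p-values among the falls, beside *Cyp1a1*, were those of the actin-bundling protein *Lima1*, from 230.3 ± 17.7 to 133 ± 15.6 CPM, and of the glycerol channel *Aqp3*, from 227 ± 8.89 to 107 ± 16.9 (SD, n = 4).

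**Figure D2:**
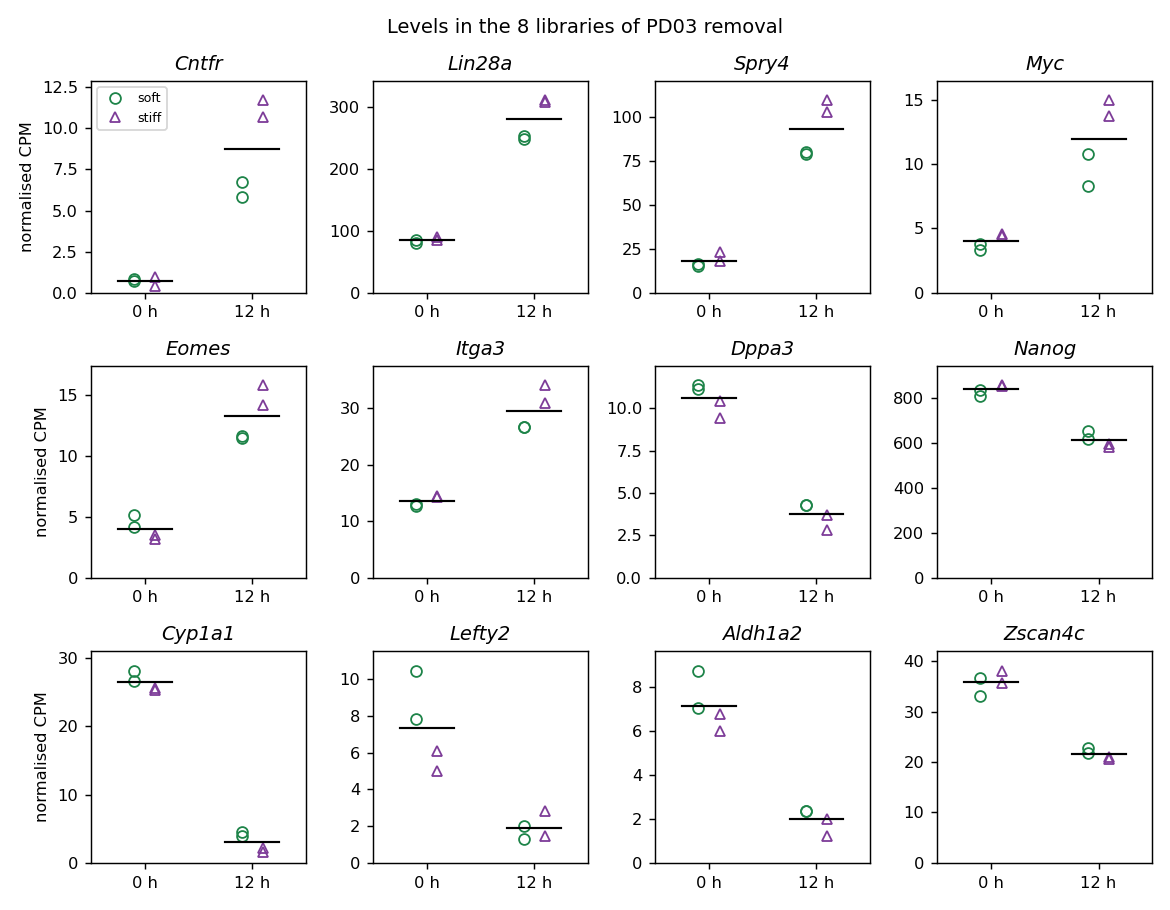
Normalised CPM (vertical axis, from 0) of 12 genes in the 8 libraries at 0 h and 12 h, with circles for soft, triangles for stiff and a bar at the mean of the 4 libraries of a time. In each panel the 12 h libraries lie wholly above (*Cntfr*, *Lin28a*, *Spry4*, *Myc*, *Eomes*, *Itga3*) or wholly below the 0 h libraries.

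The inhibitors that ERK induces against itself form the gene group closest to the kinase that PD03 inhibits. Of 20 tested genes of this kind, 12 rose, 4 fell and 4 were not called, with a median log2 fold change of 0.51, beside rises in 21.0%, falls in 21.8% and a median of 0.00032 over all genes tested. The Sprouty genes *Spry4*, *Spry2* and *Spry1* rose by 2.38, 0.75 and 0.64, and the related *Spred1*, *Spred2* and *Spred3* by 0.50, 0.52 and 0.76. Among the dual-specificity phosphatases, *Dusp4* (1.79), *Dusp6* (1.25), *Dusp9* (0.70) and *Dusp7* (0.67) rose. *Dusp6*, the phosphatase that acts on cytoplasmic ERK, went from 26.4 and 26.1 on soft and 29.1 and 30.9 on stiff to 57.8 and 58.3 on soft and 75.9 and 76.5 on stiff. *Dusp4*, its nuclear relative, went from 1.56 and 1.97 on soft and 1.92 and 1.78 on stiff to 5.26 and 3.86 on soft and 8.04 and 8.25 on stiff. Neither gene overlapped between times. The members that fell were *Dusp1* (-0.27) and *Dusp16* (-0.44), which act mainly on the stress kinases, and *Lrig1* (-0.42) and *Errfi1* (-0.21), inhibitors of growth factor receptors.

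Of 17 tested immediate early factors, which ERK induces within minutes, 4 rose and 2 fell (median 0.090), beside 21.0% and 21.8% of all genes. *Fos*, *Jun* and *Junb* were not called, with log2 fold changes of -0.26, -0.18 and 0.090 and standard errors of 0.23, 0.23 and 0.093. Those that rose were *Nr4a1* (0.41), *Ier2* (0.38) and *Ier5l* (0.43). *Fosl2* also rose, from 0.282 to 0.634 CPM, near the detection limit, and those that fell were *Klf6* (-0.56) and *Klf10* (-0.14). The ETS factors moved both ways, with 6 of 19 risen and 7 fallen, and their median of -0.084 was 0.03 on soft substrates alone. *Etv4* and the repressor *Erf* (0.58) rose, whereas the PEA3 factor *Etv5* fell by 0.092, and *Ehf* and *Spic* fell by 2.04 and 2.07. *Ehf* was near the detection limit, at a mean of 0.365 CPM at 12 h.

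Components of the cascade itself changed little. Of 30 genes from Ras to the ribosomal S6 kinases, 12 rose and 3 fell (9 and 5 with scaling by totals), with a median of 0.081 and a range from -0.366 to 0.573. ERK1 (*Mapk3*) went from a range of 11.6 to 12.5 CPM to one of 16.4 to 19.1 (log2 fold change 0.57, standard error 0.074, adjusted p = 8.52e-07). MEK1 (*Map2k1*) fell by 0.22 whereas MEK2 (*Map2k2*) rose by 0.16. *Nras* and *Hras* were not called, at -0.013 and -0.0050. The ligand *Fgf4* (chromosome 7, 144847367 to 144865243) fell from 157 and 159.8 on soft and 166 and 145 on stiff to 114 and 111 on soft and 115 and 105 on stiff (log2 fold change -0.49, standard error 0.041, adjusted p = 5.49e-10). Its receptors were split, with *Fgfr1* up by 0.15 and *Fgfr2* from a mean of 3.25 ± 0.848 to 1.73 ± 0.54 CPM (SD, n = 4, log2 fold change -0.93). In all, 4 of 14 FGF ligands, receptors and binding proteins rose and 3 fell, or 2 and 3 with scaling by totals. Over all genes 21.0% rose and 21.8% fell. Other growth factors included the receptor *Kit*, which fell by 0.50, and the ligands *Vegfc* and *Pdgfa*, which rose by 0.43 and 0.14.

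The factors and marker genes of naïve pluripotency did not move as one. Of 26 tested, 11 rose, 13 fell and 2 were not called (median -0.042), beside rises in 21.0% and falls in 21.8% of all genes. Besides *Dppa3* and *Nanog*, falls were those of *Fbxo15* (-0.74), *Prdm14* (-0.54), *Jam2* (-0.51), *Tcl1* (-0.47), *Tfcp2l1* (-0.42), *Dppa5a* (-0.33), *Klf4* (-0.25) and *Zfp42* (-0.20). *Prdm14*, which represses DNA methyltransferases and FGF signalling, went from 51 and 53 on soft and 48.7 and 51.9 on stiff to 36.7 and 38.1 on soft and 35 and 31.4 on stiff, with no overlap. *Tfcp2l1*, a target shared by LIF and CHIRON, went from 1886 ± 45.2 to 1411 ± 127 CPM (SD, n = 4). The rises included *Gbx2* (0.93), *Manba* (0.54), *Nr0b1* (0.47), *Dppa4* (0.46), *Zfp57* (0.26), *Nr5a2* (0.16) and *Tbx3* (0.14). *Gbx2*, a homeobox factor downstream of LIF and Wnt, went from 53.6 and 48.8 on soft and 47.3 and 47.7 on stiff to 86.8 and 89.4 on soft and 103 and 98 on stiff (log2 fold change 0.93, standard error 0.051, adjusted p = 3.06e-13). *Esrrb* and *Klf2* were not called, at -0.0068 and 0.042.

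Of 16 factors of pluripotency in general, 10 rose and 3 fell (median 0.24). *Utf1*, a chromatin factor of the epiblast, went from 15.7 and 15.1 on soft and 19.3 and 14.7 on stiff to 35.7 and 41.2 on soft and 58.1 and 51.6 on stiff (log2 fold change 1.52, standard error 0.082, adjusted p = 2.40e-13). *Sall4* rose by 0.43 and *Sox2* fell by 0.18. Of 25 genes of the formative and primed states, 16 rose and 0 fell (14 and 2 with scaling by totals), with a median of 0.34. The SoxC factor *Sox11* went from 3.87 and 3.84 on soft and 4.67 and 4.09 on stiff to 13.6 and 15 on soft and 17.2 and 17.4 on stiff, higher at 12 h in every library (log2 fold change 1.94, standard error 0.094, adjusted p = 3.55e-14). *Fzd7* (1.15), *Sox4* (0.94), *Tcf15* (0.75), *Lef1* (0.60), *Dnmt3b* (0.46) and *Epha2* (0.41) rose as well. *Pou3f1* and *Sox3* rose from levels near the detection limit, to means of 1.22 and 1.07 CPM. The formative regulator *Otx2* was not called, at -0.12 with a standard error of 0.18, nor were *Foxd3* (-0.14) and *Cdh2* (0.21). These lists were drawn up with earlier results of these data known, and their counts are a description.

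The enzymes that set new DNA methylation rose. *Dnmt3l*, the cofactor of the de novo enzymes, went from 73.8 and 88.8 on soft and 103 and 101 on stiff to 151 and 145 on soft and 180.4 and 179.9 on stiff (log2 fold change 0.84, standard error 0.043, adjusted p = 9.10e-14), and the enzymes *Dnmt3b* and *Dnmt3a* rose by 0.46 and 0.34. The maintenance pair *Dnmt1* and *Uhrf1* were not called, at 0.0024 and 0.026. Of the erasers, *Tet3* and *Tet1* rose by 0.41 and 0.20 and *Tet2* fell by 0.086. Over the whole list 8 of 17 rose and 3 fell, and the median of 0.033 turned to -0.013 when libraries were scaled by totals. Of 30 Polycomb, trithorax and remodelling genes, 17 rose and 4 fell (median 0.20). The H3K27 demethylase *Kdm6b* rose by 0.96 and the methyltransferase *Ezh2* by 0.50, with *Ezh2* at 48 and 48.9 on soft and 41.6 and 48.3 on stiff at 0 h and 66.5 and 65.7 on soft and 66.1 and 67.3 on stiff at 12 h. *Arid1a*, *Kmt2a* and *Cbx7* rose by 0.55, 0.49 and 0.46, whereas *Bmi1*, *Kdm5b* and *Suz12* fell by 0.40, 0.29 and 0.11. Among 28 imprinted genes 12 rose and 1 fell, or 10 and 3 with scaling by totals (median 0.17). The rises included the non-coding transcripts *Mirg*, *Meg3* and *Rian* of one cluster (0.82, 0.63 and 0.27), and *Peg10* (0.71), *Mest* (0.64) and *Zdbf2* (0.63).

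The pathway of LIF, which stayed in the medium, was examined from ligand to target. *Lif* was not called (0.035), its receptor *Lifr* rose by 0.16 and the shared chain *Il6st* (gp130) fell by 0.26. *Stat3* rose by 0.11, as did its feedback inhibitors *Socs3*, *Socs2* and *Socs1* by 0.22, 0.29 and 0.50, whereas the target *Pim1* fell by 0.15. In all 12 of 24 members rose and 2 fell (10 and 4 with scaling by totals), with a median of 0.15. Apart from *Cntfr*, the members with a mean above 2 CPM stayed within a log2 fold change of 0.6. In the Nodal pathway the ligand *Nodal* went from 44.9 and 48.1 on soft and 42.9 and 45 on stiff to 32.4 and 33.8 on soft and 34.7 and 30.3 on stiff (log2 fold change -0.46, standard error 0.053, adjusted p = 1.28e-07), with every 12 h library lower. Its inhibitor *Lefty2* and the convertase *Pcsk6* also fell (-1.92 and -0.32), the related ligand subunit *Inhbb* rose by 0.78, and the co-receptor *Tdgf1* was not called (-0.062). Of 18 members 3 rose and 5 fell, or 2 and 6 with scaling by totals.

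The inhibitors of differentiation of the Id family, targets of bone morphogenetic proteins (BMPs), went in opposite directions. *Id1* went from 4.52 and 4.08 on soft and 4.03 and 3.64 on stiff to 10.9 and 9.02 on soft and 14.1 and 11.8 on stiff (log2 fold change 1.49, standard error 0.12, adjusted p = 4.05e-10) and *Id3* rose by 0.62. *Id4* went from 13.4 and 13 on soft and 11.7 and 11.9 on stiff to 6.68 and 4.56 on soft and 5.42 and 5.98 on stiff (log2 fold change -1.15, standard error 0.11, adjusted p = 3.06e-09) and *Id2* fell by 0.84. All 4 had libraries that did not overlap between times. The ligand *Bmp4* rose by 0.67 and *Bmp7* fell by 0.45. CHIRON, which stabilises β-catenin, was present at both times, and of 20 Wnt targets and feedback genes 8 rose and 3 fell (median 0.19). *T* (Brachyury) went from 9.65 and 8.26 on soft and 10.4 and 7.92 on stiff to 24.1 and 23 on soft and 25.9 and 28 on stiff (log2 fold change 1.48, standard error 0.084, adjusted p = 5.08e-13), *Cdx1* rose by 0.61 and *Axin2* by 0.23. *Sp5* and *Ccnd1* were not called (0.041 and 0.0028), and the secreted inhibitors *Sfrp1* and *Notum* fell by 0.53 and 0.30. The secretion factor *Wls* fell from 9.77 ± 0.98 to 5.07 ± 1.11 CPM, whereas the acyltransferase *Porcn*, which modifies Wnt ligands, rose from 37.5 ± 1.19 to 60.7 ± 1.57 (SD, n = 4).

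Genes of the primitive streak, the site where mesoderm and endoderm form, were mostly higher at 12 h, with 6 of 10 tested risen and 1 fallen (median 0.62). *Eomes* went from 4.17 and 5.14 on soft and 3.19 and 3.49 on stiff to 11.5 and 11.6 on soft and 15.8 and 14.2 on stiff (log2 fold change 1.73, standard error 0.13, adjusted p = 1.05e-10), and *Evx1* from 1.91 and 1.63 on soft and 2.36 and 2.04 on stiff to 4.37 and 4.56 on soft and 7.99 and 6.17 on stiff (log2 fold change 1.53, standard error 0.15, adjusted p = 7.78e-09). Both rose on each substrate without overlap. *Gsc*, another gene of the streak, fell from 3.96 ± 0.422 to 1.51 ± 0.757 CPM (log2 fold change -1.38, standard error 0.21, adjusted p = 8.30e-06), and *Mixl1* and *Mesp2* were not called. The summed level of the list was 145.4 to 149.5 CPM at 0 h and 225.6 to 242.3 at 12 h, and *Cdx1* made up most of it. Of the 21 genes listed, 11 were below the filter on low counts.

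The aryl hydrocarbon receptor is a sensor of aromatic compounds that works with Arnt proteins. Of 12 tested targets and partners, 7 fell and 3 rose (median -0.30). Besides *Cyp1a1* and *Ahrr*, the targets *Cyp1b1* and *Aldh3a1* fell by 1.91 and 1.43 from means of 1.55 and 1.24 CPM. Their 12 h levels were near the detection limit, so that the size of these falls is uncertain. The receptor *Ahr* itself went from 13.7 and 15.1 on soft and 15.5 and 14.9 on stiff to 11.2 and 11.7 on soft and 11.3 and 11.3 on stiff (log2 fold change -0.37, standard error 0.077, adjusted p = 3.38e-04), and the target *Nqo1* fell by 0.22. The partners *Arnt* and *Arnt2* rose by 0.25 and 0.51, as did the target *Tiparp* (0.28).

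Genes of retinoic acid moved in both directions. *Aldh1a2*, which makes the acid, fell, and of its receptors *Rarg* and *Rara* rose whereas *Rarb* fell by 0.55. *Rarg* went from 83.6 and 83.8 on soft and 85.5 and 84.1 on stiff to 172 and 175 on soft and 202 and 206 on stiff (log2 fold change 1.16, standard error 0.040, adjusted p = 6.63e-17), and *Rara* rose by 0.79. The binding protein *Crabp2* rose by 0.64, and *Stra8*, a target in germ cells, fell by 0.28. The list had 9 rises and 5 falls among 18 (median 0.24). In the group of lipid mediators, cyclooxygenase *Ptgs1* went from 1.17 and 0.817 on soft and 1.67 and 1.38 on stiff to 3.37 and 3.02 on soft and 6.56 and 6.93 on stiff (log2 fold change 1.96, standard error 0.17, adjusted p = 1.35e-09), and the sphingosine phosphate receptor *S1pr1* from 9.43 and 10.9 on soft and 6.98 and 8.48 on stiff to 3.00 and 4.21 on soft and 2.52 and 2.83 on stiff (log2 fold change -1.51, standard error 0.13, adjusted p = 6.43e-10). Its relative *S1pr2* rose by 0.76, the lipoxygenase *Alox12* fell by 1.84 and the prostaglandin synthase *Ptges* by 0.63. Of 15 such genes 7 rose and 4 fell.

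The serpins, inhibitors of proteases, were lower in most of their calls, with 10 falls and 2 rises among 23 (median -0.44). *Serpinb6b* (-1.27), *Serpinb6c* (-1.24), *Serpinb9* (-1.03), *Serping1* (-0.98) and *Serpinb9b* (-0.78) fell, of which *Serpinb9b* went from 40.5 and 44.9 on soft and 46 and 43.2 on stiff to 25.1 and 26 on soft and 23.5 and 27.1 on stiff. The collagen chaperone *Serpinh1* rose by 0.35. Members of the *Serpinb6* and *Serpinb9* clusters are close copies whose reads may be shared. Of 254 solute carriers 66 rose and 57 fell, near the shares over all genes. *Slc7a7*, which exchanges cationic amino acids, went from 7.91 and 7.54 on soft and 11.5 and 10.4 on stiff to 25.3 and 27.9 on soft and 40.6 and 44.3 on stiff (log2 fold change 1.88, standard error 0.072, adjusted p = 3.50e-16), and the metal transporter *Slc39a14* rose by 1.54. *Slc24a5*, an exchanger of pigment cells, fell by 2.40.

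Regulators of entry into the cell cycle were mostly risen or not called. Of 25 G1 cyclins, E2F factors and inhibitors of cyclin-dependent kinases, 13 rose and 2 fell (median 0.20). *E2f2* went from 9.65 and 6.39 on soft and 6.93 and 7.81 on stiff to 15.6 and 14.5 on soft and 21.2 and 20.7 on stiff (log2 fold change 1.21, standard error 0.11, adjusted p = 4.98e-09), and the cyclins *Ccnd3* and *Ccne1* rose by 0.39 and 0.41. *Ccnd2* rose from a level near the detection limit to a mean of 2.02 CPM. *Ccnd1* was not called (0.0028), and the inhibitor *Cdkn1b* (p27) fell by 0.21. Of 28 genes of S phase and mitosis, 7 rose and 7 fell (5 and 11 with scaling by totals), beside 21.0% and 21.8% of all genes. Their log2 fold changes ranged from -0.189 to 0.319. *Myc* (chromosome 15, 61985391 to 61990374), which drives growth and is induced by ERK and Wnt, went from 3.82 and 3.32 on soft and 4.42 and 4.54 on stiff to 10.8 and 8.32 on soft and 15 and 13.8 on stiff, with the higher 12 h values on stiff (log2 fold change 1.56, standard error 0.11, adjusted p = 3.78e-11). Its relatives *Mycn* and *Mycl* were not called (-0.029 and 0.032). Among p53 targets 8 of 21 rose and 6 fell (8 and 9 with scaling by totals), led by *Gadd45a* (1.04), *Pmaip1* (1.0) and *Plk3* (0.80) upward and by *Btg2* (-0.39), *Plk2* (-0.39) and *Sesn1* (-0.37) downward.

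Genes of the mitochondrial genome rose together. Of 19 tested, 16 rose and 0 fell, with a median of 0.93. The large ribosomal RNA *mt-Rnr2* went from 49985 and 46360.0 on soft and 55662 and 45158 on stiff to 87934 and 82841 on soft and 99556 and 98371 on stiff (log2 fold change 0.90, standard error 0.045, adjusted p = 5.55e-14), and *mt-Nd1* from 483 and 388 on soft and 529 and 393 on stiff to 885 and 773 on soft and 1074 and 1101 on stiff (log2 fold change 1.09, standard error 0.072, adjusted p = 9.36e-12). *mt-Co3* rose by 0.39 and *mt-Nd3* was not called (-0.0020). Nuclear copies of this genome may share some of these reads. At 2 h *mt-Nd1* lay between 495 and 659.7.

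The nuclear subunits of oxidative phosphorylation fell, with 59 of 80 fallen and 4 risen (median -0.20). *Cox7a1*, a cytochrome oxidase subunit of contractile tissue, fell most, from 23.8 and 22.8 on soft and 18.7 and 23 on stiff to 11.6 and 11.7 on soft and 9.13 and 11.9 on stiff (log2 fold change -1.0, standard error 0.084, adjusted p = 6.02e-10). *Cox7b* and *Uqcrb* fell by 0.44 and 0.38. Of 86 genes of cytosolic ribosomal proteins 62 fell and 2 rose (median -0.17), with *Rpl39* at 139.7 and 161 on soft and 148 and 158 on stiff at 0 h and 110.2 and 110.0 on soft and 116 and 101 on stiff at 12 h. Of 38 genes that assemble ribosomes, 21 rose and 2 fell (median 0.10; 13 and 2 with scaling by totals). Nucleolin (*Ncl*) rose by 0.45 and fibrillarin (*Fbl*) by 0.32, whereas *Npm1* fell by 0.10. The replication-dependent histones fell in 62 of 68 genes and rose in 0 (median -0.36), among them *Hist1h2bb* from 390.5 ± 17.4 to 237 ± 20.2 CPM (SD, n = 4). Of 48 proteasome genes 27 fell and 5 rose (median -0.10), whereas with scaling by totals the rises and falls were 3 and 27.

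The shortest genes as a class had lower fold changes, which touches some of these groups. In the shortest of 5 equal bins of protein-coding genes (123 to 2393 exonic bases) 780 of 2664 fell and 387 rose, with a median of -0.0691, and in the longest bin (7555 to 123179 bases) 576 of 2662 fell and 795 rose, with a median of 0.0291. The median exonic length was 529 bases in the histones, 1631 in the subunits of oxidative phosphorylation, 1736 in the ribosomal proteins and 2628 in the proteasome. That of the proteasome lies in the next bin (2394 to 3658 bases), where 604 of 2659 fell and 581 rose, with a median of 0.00642. The part of gene length, and that of the larger mitochondrial share at 12 h, in these changes was not tested. After CHIRON removal the shortest bin had a median of 0.052. Many of the ribosomal protein genes and all of the histone clusters have near-copies elsewhere in the genome, so that single values are uncertain.

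Metabolic enzymes changed in both directions. Of 29 genes of glycolysis and its regulation 11 fell and 4 rose (median -0.063). Lactate dehydrogenase *Ldhb* went from 113 and 111 on soft and 108 and 113 on stiff to 79.3 and 79.4 on soft and 63.1 and 65.5 on stiff (log2 fold change -0.64, standard error 0.047, adjusted p = 6.59e-11) and hexokinase *Hk1* fell by 0.59, whereas *Hk2* and *Ldha* were not called (0.036 and 0.0061). Pyruvate dehydrogenase kinase *Pdk1* went from 119 and 125 on soft and 132 and 129 on stiff to 193 and 184 on soft and 206 and 206 on stiff (log2 fold change 0.64, standard error 0.034, adjusted p = 1.84e-13). Among sterol genes 5 of 23 rose and 6 fell (3 and 9 with scaling by totals), with the regulator *Srebf2* up by 0.43 and *Insig1* down by 0.29. The amino acid transporters *Slc38a2* and *Slc3a2* rose by 0.46 and 0.36, whereas the stress factor *Atf4* fell by 0.23.

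Receptors for the matrix moved in both directions. *Itga1* went from 1.17 and 0.721 on soft and 0.934 and 0.967 on stiff to 2.37 and 2.67 on soft and 3.99 and 3.53 on stiff (log2 fold change 1.71, standard error 0.20, adjusted p = 2.55e-07), and *Itga3*, a laminin receptor, from 12.7 and 13.1 on soft and 14.3 and 14.5 on stiff to 26.6 and 26.7 on soft and 30.9 and 34 on stiff (log2 fold change 1.11, standard error 0.065, adjusted p = 9.53e-13). The 0 h mean of *Itga1* was near the detection limit, so that the size of its rise is uncertain. *Itga9* and *Itga5*, a fibronectin receptor, rose by 1.35 and 0.46. Other integrins fell, namely *Itgb3* (-0.60), *Itgb5* (-0.37), *Itgav* (-0.30) and *Itgb1* (-0.16), of which *Itgb1* pairs with most alpha chains. Zyxin (*Zyx*), a protein of focal adhesions and stress fibres, went from 3.35 and 3.41 on soft and 3.64 and 2.9 on stiff to 9.15 and 8.62 on soft and 11.6 and 10.8 on stiff (log2 fold change 1.60, standard error 0.12, adjusted p = 6.42e-11), and vinculin (*Vcl*) fell by 0.25. In all 10 of 27 such genes rose and 7 fell, beside 21.0% and 21.8% of all genes. Their median of 0.0096 turned to -0.037 when libraries were scaled by totals. Basement membrane genes were also split, with *Agrn*, *Col18a1* and *Lama5* up by 0.56, 0.50 and 0.38 and *Lama1*, *Spp1* and *Fn1* (fibronectin) down by 0.54, 0.54 and 0.21.

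Cytoskeletal targets of serum response factor fell in 13 of 24 cases and rose in 5 (median -0.16). Actin *Actg1* went from 519 and 538 on soft and 551 and 537 on stiff to 408 and 396 on soft and 354 and 360.3 on stiff (log2 fold change -0.50, standard error 0.037, adjusted p = 8.61e-11), and tropomyosins *Tpm4* and *Tpm1* fell by 0.60 and 0.34. *Actb* was not called (-0.042), and the cofactors *Mkl1* and *Mkl2* rose by 0.58 and 0.28. Among junction genes, desmoplakin (*Dsp*) went from 19.1 and 21.5 on soft and 20.3 and 20.4 on stiff to 8.05 and 9.96 on soft and 6.84 and 6.42 on stiff (log2 fold change -1.37, standard error 0.094, adjusted p = 1.77e-11), claudin *Cldn4* fell by 0.84 and E-cadherin (*Cdh1*) by 0.18. The connexin *Gja1* rose by 0.80. Of 21 YAP targets 9 rose and 5 fell, beside 21.0% and 21.8% of all genes. Their median of -0.0165 was 0.157 on stiff libraries alone. *Cyr61* and *Ctgf* were among the falls, by 0.63 and 0.36, while *Yap1* was not called (-0.016). Ephrin receptors and other guidance genes rose in 16 of 29 cases and fell in 5 (median 0.37), with *Epha1* (2.57), *Plxnb1* (0.87), *Epha7* (0.69) and *Plxna1* (0.54) upward and *Epha4* (-0.30) and *Ephb4* (-0.14) downward. The small GTPases *Rac1* and *Rhoc* rose by 0.31 and 0.55, and *Rhoa*, *Rhob* and *Cdc42* fell by 0.20, 0.40 and 0.17.

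Genes of the cleavage-stage embryo, which a small share of mESCs switch on in culture, were lower at 12 h in nearly every tested member. Of 26 tested 25 fell and 0 rose (median -0.74). *Zscan4c* went from 36.6 and 33 on soft and 38.1 and 35.7 on stiff to 22.8 and 21.7 on soft and 20.7 and 20.9 on stiff (log2 fold change -0.74, standard error 0.061, adjusted p = 5.16e-10), and *Zscan4a* (-0.70), *Zscan4b* (-0.72), *Zscan4d* (-0.65), *Zscan4e* (-0.60) and *Zscan4f* (-0.76) fell too. *Pramel6* and *Usp17le* fell by 0.92 and 1.05. These families are near-identical copies, so that their members are not independent and single values are uncertain. The summed level of the list was 357.7 to 394.9 CPM at 0 h and 252.8 to 275.3 at 12 h. A smaller share of such cells and less RNA in each cannot be told apart. Several members had been picked with results of these data known, and the count is no independent evidence of its direction.

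Markers of other cell types that a culture of mESCs could hold were summed for each library. Of 19 markers of primitive endoderm 12 passed the low-count filter, 5 rose and 3 fell, and they summed to 811.2 to 861.8 CPM at 0 h and 768.8 to 843.7 at 12 h, with ranges that overlapped. *Sox17* and *Gata4* did not pass the filter, *Gata6* rose to a mean of 1.29 CPM, and the matrix genes *Lamc1*, *Sparc* and *Lama1* held most of the sum. Of 18 trophectoderm markers 13 were tested, 4 rose and 3 fell, and the sum went from 138.9 to 141.9 at 0 h to 160.4 to 169.2 at 12 h. *Elf5* did not pass the filter, and *Krt8* fell by 0.47. Of 17 neural markers 7 were tested, 2 rose and 2 fell, and the sum went from 127.3 to 132.8 to 151.5 to 168, with *Sox1* up by 0.61 and *Nes* down by 0.42. The rises in these sums include *Bmp4*, *Eomes* and *Gbx2*, which are also genes of the epiblast or the streak. Of 17 fibroblast markers 9 were tested, which summed to 446 to 494.2 and then 500.2 to 545.9. The mesenchymal filament *Vim* held nearly all of this sum and rose by 0.16, and *Col1a1* was at a mean of 0.458 CPM at 0 h and 0.499 at 12 h. The part of such cells in the changes above was not tested.

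The classes of transcript below stand beside the 21.0% of all genes that rose and the 21.8% that fell. Of 381 long intergenic RNAs 101 rose and 21 fell (median 0.17), and of 266 antisense RNAs 47 rose and 12 fell (median 0.24), whereas of 2996 processed pseudogenes 149 rose and 756 fell (median -0.10). Small nucleolar RNAs rose in 21 of 123 and fell in 1, and their host genes rose in 8 of 14, with *Snhg11* up by 0.84. Spliceosomal small nuclear RNAs fell in 24 of 45 and rose in 0 (median -0.53). Reads of pseudogenes, antisense and repeated small RNAs may come from their parent or partner genes. Among the larger protein families, 80 of 346 genes of the Zfp series rose and 52 fell (68 and 66 with scaling by totals), and Rab GTPases rose in 10 of 48 and fell in 15 (8 and 19 with scaling by totals). Of 18 Notch genes 8 rose and 1 fell, with *Notch3* (0.62) and *Rbpj* (0.41) upward and *Notch2* down by 0.20.

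Several enzyme and protein families without a place above are given by their counts, which stand beside the 21.0% of all genes that rose and the 21.8% that fell. Of 23 tested cytochrome P450 genes 4 rose and 8 fell (median -0.33), and beside *Cyp1a1* the falls included *Cyp2j6* and *Cyp2c70*, which went from 3.64 ± 0.518 to 1.8 ± 0.509 and from 2.16 ± 0.228 to 1.01 ± 0.0825 CPM (SD, n = 4). Of 15 aldehyde dehydrogenases 1 rose and 6 fell (median -0.11). The folate enzyme *Aldh1l1* fell by 0.61 and the mitochondrial *Aldh1b1* by 0.56, whereas *Aldh2* rose by 0.30. Of 17 glutathione S-transferases 0 rose and 4 fell, among the latter *Gstm3* (-0.56), *Gstm2* (-0.48) and *Gsta4* (-0.32). Of 14 genes of the hypoxia response 2 rose and 5 fell (median -0.15), with *Ndrg1* (-0.57) and *P4ha1* (-0.56) downward and *Egln3* (0.56) and *Epas1* (0.49) upward. Linker histones and histone chaperones were split, the linkers *Hist1h1b* (-0.44), *Hist1h1a* (-0.40) and *Hist1h1c* (-0.30) and the variant *H2afy* (-0.54) falling and the chaperones *Hira* (0.25) and *Chaf1a* (0.21) rising.

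Among immune genes, *Ddx58* (RIG-I), a sensor of viral RNA, went from 50.2 and 58.4 on soft and 57.5 and 52.9 on stiff to 112 and 107 on soft and 128 and 136 on stiff, with no overlap (log2 fold change 1.14, standard error 0.052, adjusted p = 1.04e-14). The antiviral *Bst2* rose by 0.67 and the immunoproteasome subunit *Psmb10* by 0.63, whereas β2-microglobulin (*B2m*) and *Ifitm1* fell by 0.53 and 0.52. Of 18 such genes 7 rose and 4 fell, beside 21.0% and 21.8% of all genes. The death receptor *Tnfrsf25* rose by 1.23. Of 16 genes of the Bcl2 family 5 rose and 4 fell (median 0.061), or 4 and 4 with scaling by totals. The killers *Pmaip1* (1.0), *Bcl2l11* (0.54) and *Bak1* (0.20) rose and the killer *Bok* (-0.35) fell. *Mcl1* (-0.10) and *Bcl2l1* (-0.14), which protect cells, fell as well. Of 22 Wnt ligands, receptors and secretion factors 10 rose and 4 fell (median 0.16), with the receptor *Fzd7* from 24.4 and 24.4 on soft and 20.9 and 24.6 on stiff to 48.1 and 47.7 on soft and 58.5 and 55.3 on stiff and the ligand *Wnt8a* up by 0.76. The protocadherin *Pcdh1* rose from 1.53 ± 0.358 to 4.87 ± 0.55 CPM and the collagen *Col6a5* from 8.01 ± 1.01 to 17.4 ± 2.28 (SD, n = 4), whereas *Col9a2* and *Pcdh19* fell by 0.53 and 0.63. Among genes of germ cells *Piwil2*, which guards against transposons, rose by 0.88 and the RNA-binding protein *Dazl* fell by 0.39. Of 46 Trim ubiquitin ligases 16 rose and 5 fell, or 9 and 6 with scaling by totals (median 0.15), with *Trim44* up by 0.75 and *Trim2* down by 0.45.

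**Figure D3:**
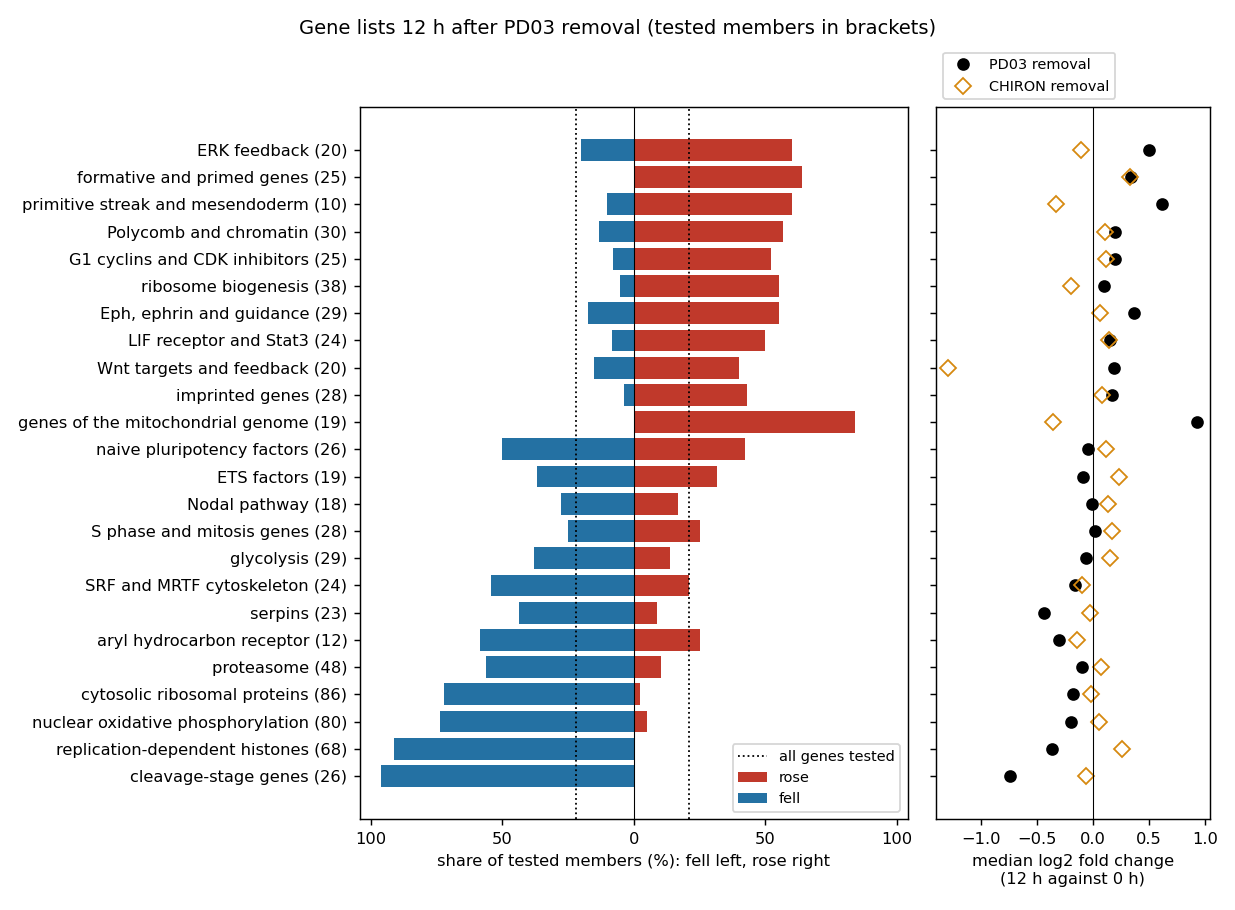
Left, share of the tested members of each gene list that rose (red, to the right) or fell (blue, to the left) at 12 h, with dotted lines at 21.0% and 21.8% for all genes tested; right, median log2 fold change after PD03 removal (dots) and after CHIRON removal (diamonds). Cleavage-stage genes (-0.74) and genes of the mitochondrial genome (0.93) had the lowest and highest medians shown after PD03 removal.

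The fit treats soft and stiff as 1 response, and the substrates were therefore also compared. In fits of each substrate alone, 4405 of 17700 genes changed on soft (24.9%) and 6091 of 17633 on stiff (34.5%). Of the 7682 genes called in the joint fit with a value on both, 7680 had the same sign. That fit takes 1 common change and so favours genes of the same sign on both, and this count is no measure of agreement. The log2 fold changes of the 17306 genes tested on both had a Pearson r of 0.73 across genes, which are not independent. When the difference in response was itself tested, 0 of 18277 genes passed (0.00%), with 1163 at an unadjusted p under 0.05 in edgeR, and 0 in DESeq2, with 391 at an unadjusted p under 0.05. Of the 374 genes that rose by over 1, the rise was larger on stiff in 266 (71.1%). Of the 258 that fell by as much, the fall was larger on stiff in 173 (67.1%). The shares were much the same over all called genes, at 68% of the 3840 rises and 67.5% of the 3984 falls. Among uncalled genes the change was the more positive on stiff in 49.7%. All 10 of the largest rises were larger on stiff, by a median of 0.45, and 5 of the 10 largest falls. *Cntfr* rose by 3.01 on soft and 4.0 on stiff, *Krt23* by 2.48 and 3.47, and *Lin28a* by 1.61 and 1.84. The log2 fold changes of *Cyp1a1* were -2.69 on soft and -3.76 on stiff, and those of *Lefty2* -2.44 and -1.32. None of these single differences passed the test. Leaving out 1 library at a time gave 0 to 6 genes with a difference, 6 without the second soft library at 12 h and 3 without the second soft library at 0 h.

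**Figure D4:**
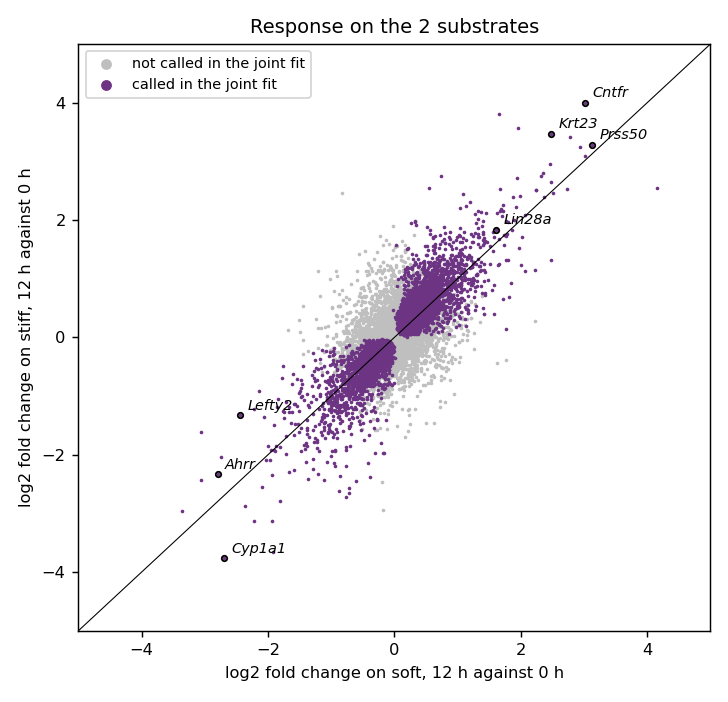
Log2 fold change at 12 h against 0 h on stiff (vertical axis) against that on soft (horizontal axis) for the 17306 genes tested on both substrates, with genes called in the joint fit in purple and the line of equal change in black. *Cntfr* lies above the line (3.01 on soft, 4.0 on stiff) and *Cyp1a1* below it (-2.69 and -3.76).

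The second experiment, in which CHIRON was withdrawn and PD03 kept, held the only other 12 h change in the series, measured against 0 h libraries of its own. After CHIRON removal 4693 of 19424 genes changed (24.2%). The difference between the 2 changes was tested in 1 fit of 16 libraries, and it passed for 5966 of 20826 genes (28.6%), 2877 higher (13.8%) and 3089 lower (14.8%) after PD03 removal. Of 3696 genes that rose after PD03 removal and were tested in both, 699 also rose after CHIRON removal (18.9%) and 654 fell (17.7%). Of 3845 that fell after PD03 removal, 576 also fell after CHIRON removal (15%) and 630 rose (16.4%). Over all 19424 genes tested after CHIRON removal 12.6% rose and 11.5% fell. That set also holds genes not called after PD03 removal or not tested there, so that the shares are not of like sets. Each change was set against its own 0 h libraries, and other differences between the experiments cannot be told apart from that of the medium. Scaling by totals alone gave 6032 genes, 36.3% of them higher in place of 48.2%.

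The smallest p-values for a higher change after PD03 removal were those of *Sp5*, *Cdx1*, *Axin2*, *Gbx2* and *Lin28a*. *Sp5*, a direct target of β-catenin, had log2 fold changes of 0.041 after PD03 removal and -5.94 after CHIRON removal, a difference of 5.97 (standard error 0.10, adjusted p = 6.58e-23). *Cdx1* and *Axin2* differed by 4.64 and 2.83. *Lin28a* rose by 1.72 after PD03 removal and changed by -1.96 after CHIRON removal (3.66, standard error 0.10, adjusted p = 1.00e-18). *Gbx2* did likewise, at 0.93 and -2.55 (difference 3.46, adjusted p = 3.76e-19). *Spry4*, *Myc* and *Epha1*, which rose after PD03 removal, had log2 fold changes of -2.38, -1.89 and, without passing the test, -1.06 after CHIRON removal. In the other direction, the autophagy receptor *Calcoco2* went from 118 and 120.2 on soft and 126 and 125 on stiff to 53.7 and 55.6 on soft and 40.1 and 46.4 on stiff after PD03 removal, a log2 fold change of -1.32, and changed by 1.30 after CHIRON removal (-2.64, standard error 0.10, adjusted p = 2.63e-16). *Fgf4*, *Lrrc15*, *Rhpn2* and *Igfbp2*, which binds insulin-like growth factors, also fell after PD03 removal and rose after CHIRON removal, with differences of -1.73, -2.91, -2.06 and -1.54.

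Of the 3 marker genes, *Nanog* fell after PD03 removal and rose by 0.71 after CHIRON removal (difference -1.17, adjusted p = 3.17e-11). *Dppa3* was not called after CHIRON removal (log2 fold change -0.042, difference -1.45, adjusted p = 1.49e-05), and *Cntfr* rose by 0.87 (difference 2.66, adjusted p = 2.43e-07). Other large responses had the same sign after both removals. *Myrf* rose by 2.72 and 2.19 (difference 0.51, standard error 0.21, adjusted p = 0.0704), *Rarg* by 1.16 and 1.03, and *Lima1* fell by 0.80 and changed by -0.96 (difference 0.14, standard error 0.069, adjusted p = 0.13). A p above the threshold does not show that the changes were alike. *Zfp423* rose after both but more after PD03 removal (difference 1.0, adjusted p = 6.67e-05). *Lefty2* fell by 1.92 and rose by 2.77, a difference of -4.70 (adjusted p = 2.25e-10). For lists, the formative genes had a median of 0.34 after PD03 removal and 0.34 after CHIRON removal, the Wnt targets 0.19 and -1.29, the replication-dependent histones -0.36 and 0.26, and the genes of the mitochondrial genome 0.93 and -0.35.

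**Figure D5:**
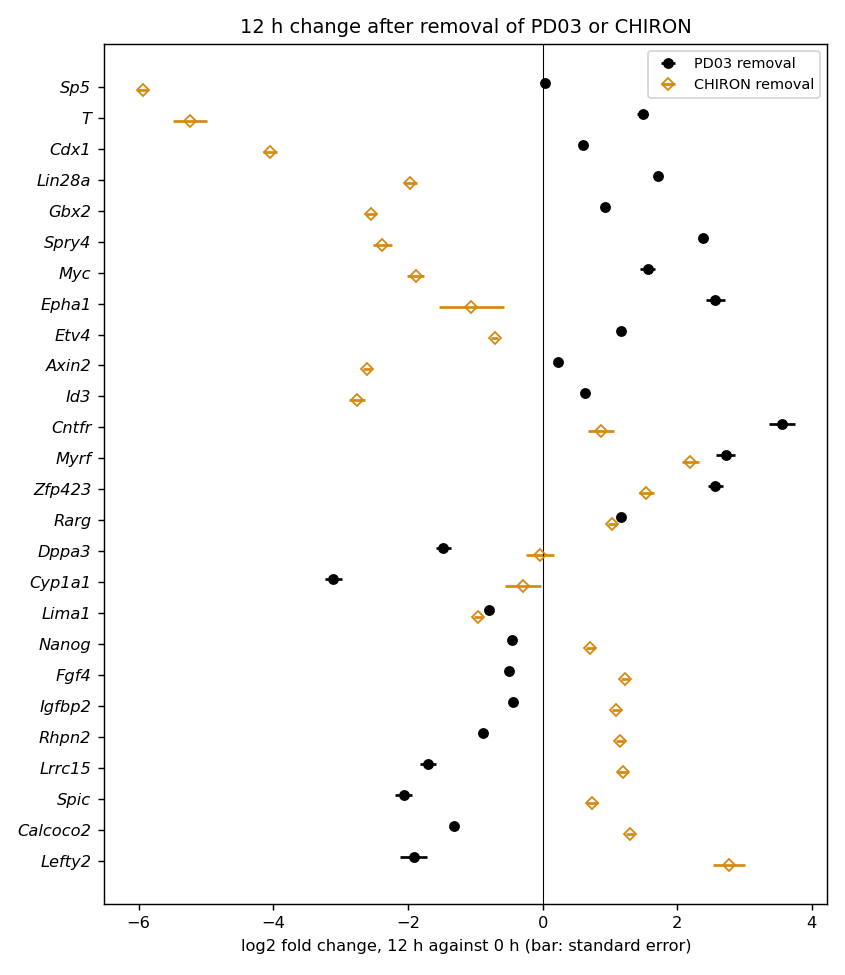
Log2 fold change at 12 h against 0 h (horizontal axis) of 26 genes after removal of PD03 (black dots) or CHIRON (orange diamonds), with bars for the standard error. *Sp5* is near 0 after PD03 removal (0.041) and at -5.94 after CHIRON removal, whereas *Myrf* is above 2 after both.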

How the data were processed

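RNA was sequenced from E14 mESCs (RNeasy extraction with DNA digestion, RiboZero depletion, Nextflex libraries), and the authors deposited whole-number counts per gene for each experiment, made after Trim Galore trimming with TopHat2 2.1.0 on GRCm38 and featureCounts 1.5.0. The deposited counts are not normalised. Of the table for PD03 removal, 23 lines without a gene name were dropped, 15 identifiers that look like dates were kept in the fit but are not named, and 12 columns of other samples were not used. Gene positions come from GENCODE for GRCm38.

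Genes were tested with edgeR 4.0.16 (quasi-likelihood test, TMM scaling, substrate as a block) in R 4.3.3 where the counts passed filterByExpr (minimum count 10, minimum total 15), with Benjamini-Hochberg adjustment over every gene tested (threshold 0.05). All p-values in the text come from this test, which was two-sided. Differences between substrates and between experiments were tested as interaction terms. Scripts were tested on simulated data with known changes. The floor of 3 counts covers counting error only, since no molecular identifiers were reported. Standard errors come from the fit and include the spread between libraries.

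Named were *Dppa3*, *Nanog* and *Cntfr*, then, of called genes with a mean of at least 2 CPM and libraries that did not overlap, the 10 largest changes and the 3 smallest p-values in each direction, then members of gene lists by size of change and by role. For the interactions, the 5 smallest p-values in each direction were named where any passed. The members and lists were chosen with earlier results of these data known, and members outside these rules were named for their role after their values were seen. Alternatives were another scaling, DESeq2 1.42.0, no filter, protein-coding genes alone (the study's choice), a replicate block, leaving out each library, all 12 libraries, and each substrate alone.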

Additional observations from a re-analysis of the deposited data

How the results depend on the processing

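The count of genes called at 12 h stayed within 1.5 times of 7824 under DESeq2 size factors (7826), DESeq2 (6648), no filter (7770), protein-coding genes alone (6557), all 12 libraries (7826) and stiff libraries alone (6091), and fell to 4405 on soft libraries alone. Of the genes changed by over 1, soft libraries alone gave 389 in place of 632. A difference between substrates was called for 27 genes with no filter on low counts, 7 higher on soft and 20 higher on stiff, and for 0 in DESeq2. The 4-library fits hold fewer samples, and other causes were not tested. Leaving out 1 library at a time gave 6877 to 7590 called genes, 579 to 760 changed by over 1, 0 to 6 with a difference between substrates and 5174 to 6103 with a difference between the removals. Scaling by totals and leaving out genes of the mitochondrial genome (7820 calls) were chosen after seeing the data.

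A fit with the replicate number as a block within substrate called 7900 genes, 7712 of them shared with the 7824, and 641 changed by over 1, 0 that differed between substrates and 5862 that differed between the removals, and it moved no count by over 1.5 times. Deviations of same-numbered libraries correlated at -0.0404 to 0.0904. With 2 libraries in a group, this cannot tell whether same-numbered libraries had a common origin.

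Of 624 genes considered for naming, 594 were called, 84 of which lost the call without at least 1 library, 162 on soft alone, 81 on stiff alone and 37 in DESeq2. *Ccnd1*, not called with all 8 libraries, fell by 0.13 on stiff alone. Genes near the floor of 3 counts could not show small changes at this depth.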
